A study of Mus musculus with 6 samples.

Results

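The 41 genes described here belong to the interferon response, to antigen presentation and to the NF-kB pathway. They were chosen by gene name, and all 41 were found among the 20040 entries of an expression table from cultured mouse cortical neurons. They comprise 11 interferon-stimulated effectors, 6 STAT and IRF transcription factors, 4 interferon receptor chains, 8 antigen presentation genes, 6 NF-kB genes, and a group of 6 that holds the suppressors of cytokine signalling Socs2 and Socs3, 3 chemokines and the cytokine receptor chain Il6st. The study compared 3 libraries labelled wild type (WT) with 3 labelled KDM6B knockout (KO). All 6 came from C57BL/6 cortex taken at embryonic day 18, dissociated and kept as neuronal cultures without any interferon or other stimulus named in the labels. Kdm6b encodes a histone demethylase that takes methyl groups off histone H3. The labels name neither the deleted stretch nor a Cre driver, nor how many embryos gave a library, and they do not say that replicates were separate cultures. The p-values here thus speak of the spread among the libraries alone, and that spread may be technical.

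Interferons bind receptor chains on the cell surface. JAK kinases then phosphorylate STAT proteins, which enter the nucleus with IRF9 or as pairs and switch on effector genes that restrict viruses. The same signals raise the transporters, peptidases and class I molecules that show peptides to T cells, and class I molecules also have roles at neuronal synapses. NF-kB factors are held in the cytoplasm by inhibitors such as IκBα until a receptor signals, and in neurons they have been tied to survival and plasticity as well as to inflammation.

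Levels are given as TPM, a length-scaled share of all transcripts, so genes can be compared on it. Of the 41 genes, 36 had a 6-library mean of 0.5 TPM or more and were tested, and 5 did not. The test was limma on log2 of TPM plus 0.5 over 14983 genes, and "passed" means a Benjamini-Hochberg adjusted p below 0.05. Fold changes are KO minus WT on that log2 scale, which understates changes of low genes. Most of the 41 genes were present at low to moderate levels. Only 2 had a mean of at least 100 TPM, 15 lay from 10 to 100 TPM, 15 from 1 to 10, 4 from 0.5 to 1 and 5 under 0.5 TPM, and 11 stood above the median tested gene.

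Few of these genes differed between the genotypes. Of the 36 tested genes, 3 fell in KO (Cx3cl1, Socs2 and Ifitm2), 0 rose and 33 did not pass. Those 3 are 8.33% of the genes tested, where 6.74% of all tested genes fell, 4.15% rose and 10.9% did either, so the share that fell was near the background. An unadjusted p below 0.05 was reached by 7 of the 36. The 3 KO libraries lay wholly below the 3 WT libraries in 6 genes and wholly above in 3, where 31.7% of all tested genes did not overlap (19.2% below and 12.5% above). The median log2 fold change was -0.04 over the 36 genes and -0.02 over all tested genes. The difference was negative in 24 of the 36 genes, and in 8502 of the 14983.

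**Figure D1:**
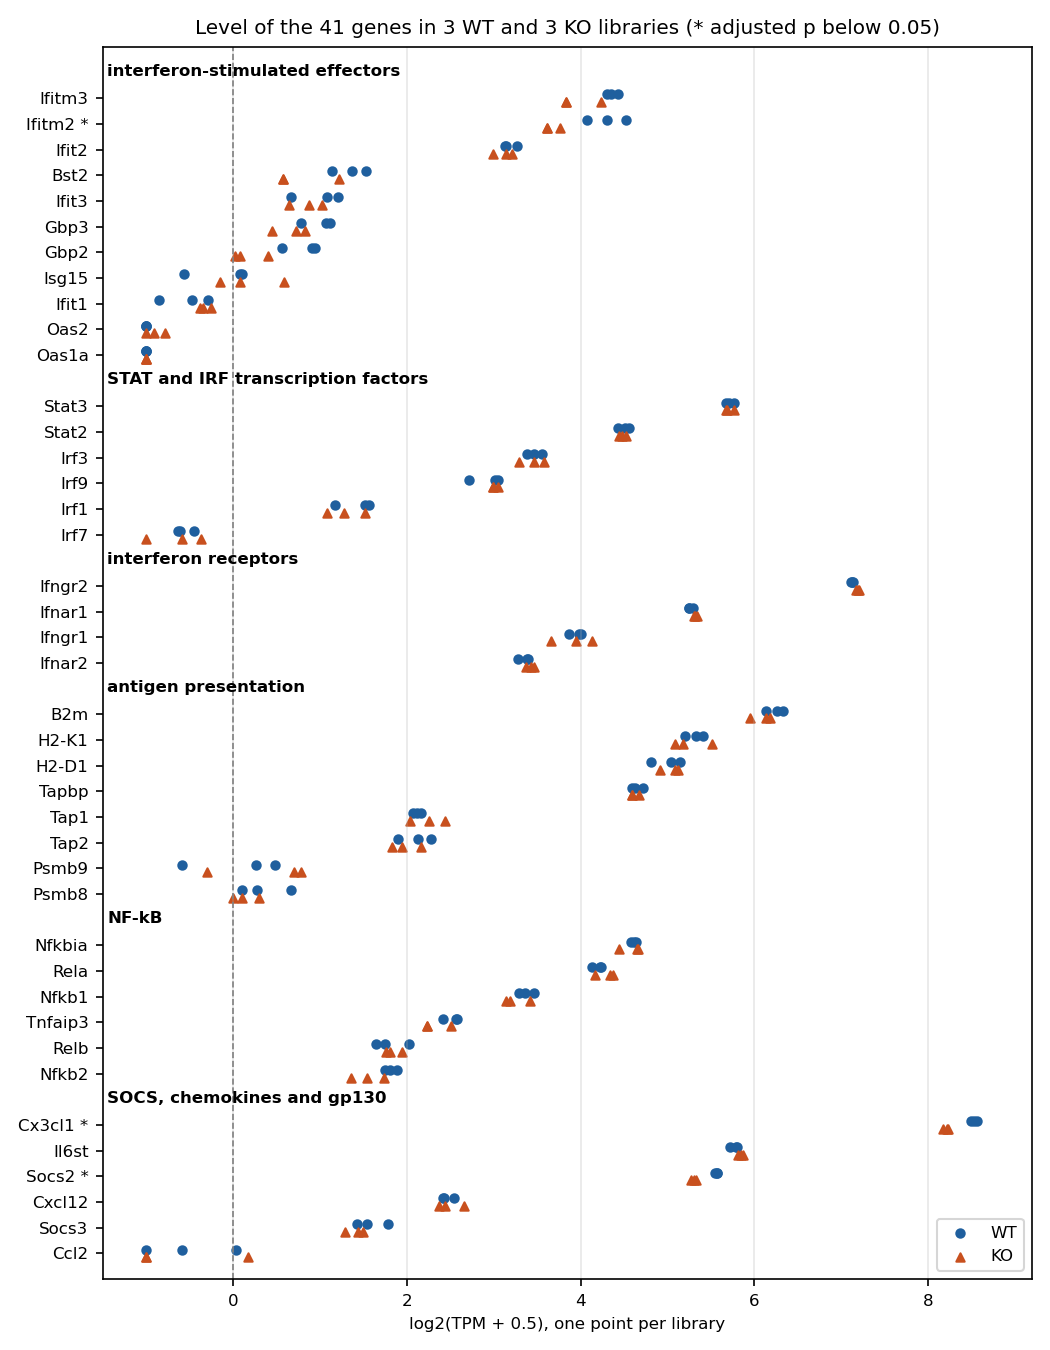
Level of each of the 41 genes in every library, as log2 of TPM plus 0.5, with WT as circles and KO as triangles, grouped by role and sorted by level. Cx3cl1 has the highest points, Oas1a sits at 0 TPM in all 6 libraries, and in most genes the points of the 2 genotypes overlap.

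The labels were checked on Kdm6b first. It stood at 30.9, 30.3 and 30.7 TPM in WT replicates 1 to 3 and at 11.2, 11.1 and 12.0 TPM in KO replicates 1 to 3, which is 37.3% of WT (log2 fold change -1.39 ± 0.05 SE, limma adjusted p = 1.1e-05). The Y-linked genes Ddx3y, Eif2s3y, Kdm5d and Uty stood in KO at 0.361% to 0.548% of WT and Xist was 3.13-fold higher, so genotype and the sex make-up of the cultures cannot be told apart. Counts recovered from the values totalled 20092825 to 23900978 per library. All 8 neuron markers were detected, and among them Tubb3 and Dcx rose, Rbfox3 fell and 5 did not pass. Of 9 astrocyte markers, also all detected, Slc1a3, Aldoc and Fabp7 rose, Aldh1l1 fell and 5 did not pass. The astrocyte markers summed to 4601 to 4756 TPM in WT and to 5140 to 5331 TPM in KO, a sum carried by Fabp7, Aldoc and Slc1a3, while the KO libraries lay wholly below WT in 5 of the 9 and the median log2 fold change was -0.12. Of 16 microglia markers 14 had a mean under 1 TPM, among them Aif1 (0.289 to 1.27 TPM over the 6 libraries) and P2ry12 (0 to 0.325 TPM). In these bulk samples fewer cells of a type and less RNA per cell cannot be told apart. Markers of vessels and of meninges are given beside the interferon-stimulated genes.

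Cx3cl1, or fractalkine, is a chemokine that neurons make as a membrane-bound protein and shed, and its receptor CX3CR1 marks microglia. It was the most abundant of the 41 genes, above 96.6% of all tested genes. Its level was 370.4, 378.6 and 360.3 TPM in WT replicates 1 to 3, and 299.0, 289.1 and 300.7 TPM in KO replicates 1 to 3. Every KO library lay below every WT library, and within each genotype the spread was small. The means were 369.8 ± 9.17 TPM in WT and 296.3 ± 6.25 TPM in KO (SD, n = 3 each), so KO held 80.1% of the WT level. The log2 fold change was -0.32 ± 0.03 SE (95% interval -0.38 to -0.26), with a limma adjusted p of 0.00058. Between 6248 and 8496 counts stood behind each value, and none of its 4024 windows of 50 bases occurs in another gene model. The receptor gene Cx3cr1 stood between 0.034 and 0.178 TPM in the 6 libraries.

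Cx3cl1 lies at chr8:94772009-94782427 on the plus strand of GRCm38, the build of the deposited values. Its RefSeq promoter window (GRCm38.p6, 250 bases before to 50 after the annotated start, chr8:94771930-94772229) is printed because Cx3cl1 had the strongest evidence of a change among the 41 genes. It was searched on both strands for the interferon-stimulated response element (ISRE: GAAA, any 2 bases, GAAA), the gamma-activated site (GAS, TTCNNNGAA) and the kappa B consensus bound by NF-kB (GGGRNNYYCC). In these letters N is any base, R is A or G, and Y is C or T. The RefSeq start lies downstream of the first base of the gene span given above, so most of the window is inside that span. None of the 3 motifs is spelled in this window, so all of its letters are in lower case.
Cx3cl1: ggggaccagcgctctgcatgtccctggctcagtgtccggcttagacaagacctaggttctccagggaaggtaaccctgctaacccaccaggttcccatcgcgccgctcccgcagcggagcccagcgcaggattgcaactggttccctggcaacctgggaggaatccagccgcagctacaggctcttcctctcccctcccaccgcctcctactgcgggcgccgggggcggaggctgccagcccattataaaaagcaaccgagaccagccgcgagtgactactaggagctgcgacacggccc

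The other chemokines were low. Cxcl12, which guides migrating neurons and interneuron precursors, stood at 4.82, 4.87 and 5.34 TPM in WT against 5.80, 4.66 and 4.92 TPM in KO. Its KO libraries spanned the WT range (102% of WT, adjusted p = 0.91). Ccl2, which draws in monocytes, was counted 4 times in all WT libraries together and 4 times in all KO libraries together and was not tested.

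Il6st encodes gp130, the signalling chain shared by receptors for IL-6, LIF and CNTF. It stood at 55.1, 52.3 and 54.9 TPM in WT against 58.0, 57.2 and 55.6 TPM in KO. All KO libraries lay above all WT libraries, by a small margin. KO stood at 105% of WT (log2 fold change 0.07 ± 0.03 SE, 95% interval -0.01 to 0.15, adjusted p = 0.23), which did not pass.

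Socs2 is a STAT target whose protein damps cytokine and growth hormone signalling. It stood at 46.3, 47.1 and 47.2 TPM in WT replicates 1 to 3, and 39.0, 39.7 and 38.1 TPM in KO replicates 1 to 3. The gap between the genotypes was several times the spread within either of them. The means were 46.9 ± 0.495 and 38.9 ± 0.791 TPM (SD, n = 3 each), and KO held 83.1% of WT. The log2 fold change was -0.26 ± 0.03 SE (95% interval -0.34 to -0.19), with a limma adjusted p of 0.0024 and 680 to 956 counts per library. The gene lies at chr10:95385362-95417180 on the minus strand of GRCm38. Socs3, its relative that inhibits signalling through gp130 and STAT3, was far lower, at 2.42, 2.18 and 2.94 TPM in WT against 2.20, 2.32 and 1.94 TPM in KO, and the genotypes overlapped (85.8% of WT, adjusted p = 0.51).

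**Figure D2:**
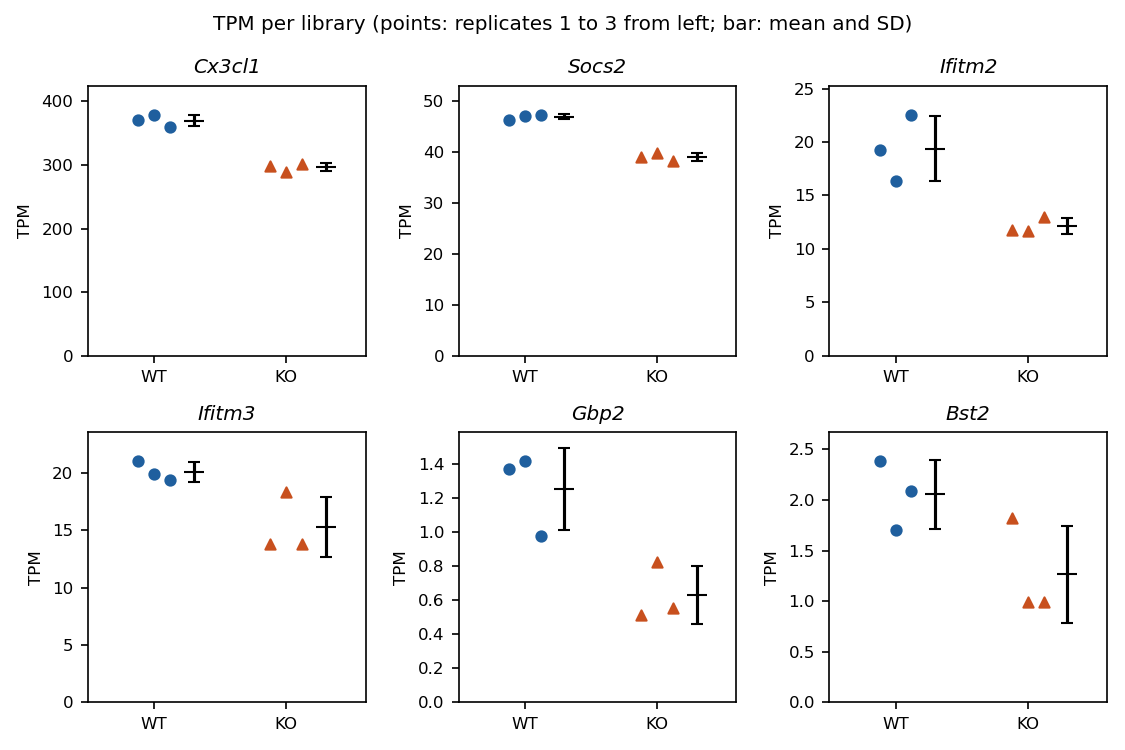
TPM in each library for 6 of the genes, each axis from 0, with points for replicates 1 to 3 and a bar for the mean and SD of 3 libraries. KO points lie below all WT points for Cx3cl1, Socs2, Ifitm2, Ifitm3 and Gbp2, and Bst2 overlaps. Of these 6 genes, Cx3cl1, Socs2 and Ifitm2 passed the test.

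The receptor chains were all detected. None of the 4 passed, where 10.9% of all tested genes did, and their median log2 fold change was 0.06. Ifngr2, the signalling chain of the interferon gamma receptor, was the second most abundant of the 41 genes. It stood at 140.8, 138.3 and 139.6 TPM in WT against 147.5, 143.7 and 146.1 TPM in KO. The KO libraries lay just above all WT libraries, at 104% of WT (log2 fold change 0.06 ± 0.02 SE, 95% interval 0.01 to 0.12, unadjusted p = 0.030, adjusted p = 0.14). Its partner Ifngr1, the ligand-binding chain, was far less abundant, between 14.1 and 15.5 TPM in WT and between 12.2 and 17.0 TPM in KO (adjusted p = 0.88).

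Ifnar1 and Ifnar2 together form the receptor for type I interferons. Ifnar1 stood at 38.6, 37.5 and 37.5 TPM in WT against 40.0, 39.4 and 39.2 TPM in KO. Again the KO libraries lay above the WT libraries by little (104% of WT, 95% interval of the log2 fold change -0.01 to 0.14, adjusted p = 0.29). Ifnar2 stood at 9.94, 10.0 and 9.19 TPM in WT against 10.2, 10.6 and 9.86 TPM in KO, with overlap (105% of WT, adjusted p = 0.57). The 95% intervals of Ifnar1, Ifnar2 and Ifngr2 lay within a 1.2-fold change in either direction.

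The STAT and IRF factors carry the receptor signal to the genes. Of these 6 factors 5 were tested, 0 passed and all 5 overlapped between genotypes. Over all tested genes 10.9% passed and 31.7% did not overlap. The median log2 fold change of the 5 was -0.02. Stat3, the main factor downstream of gp130, was the most abundant, at 54.0, 50.6 and 52.0 TPM in WT against 54.1, 50.6 and 51.1 TPM in KO. Its KO mean was 99.6% of WT, and the 95% interval of its log2 fold change ran from -0.10 to 0.09. Stat2, the STAT particular to type I and type III interferon signalling, stood at 22.3, 23.1 and 21.1 TPM in WT against 21.2, 21.8 and 22.4 TPM in KO. Here too the libraries of both genotypes were mixed in order (98.2% of WT, 95% interval -0.14 to 0.09, adjusted p = 0.80).

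Irf9, which joins STAT proteins in the complex that binds the ISRE, stood at 7.77, 6.08 and 7.59 TPM in WT against 7.47, 7.48 and 7.77 TPM in KO. Only WT replicate 2 stood apart, below the other 5 libraries (106% of WT, adjusted p = 0.65). Irf1, induced by interferon gamma, stood at 2.46, 2.37 and 1.75 TPM in WT against 2.37, 1.92 and 1.62 TPM in KO (89.8% of WT, adjusted p = 0.72). Irf3, which is activated by viral nucleic acid sensing, ranged from 9.30 to 11.5 TPM over the 6 libraries (adjusted p = 0.92). Irf7, which amplifies type I interferon production and is itself induced by it, had 0 to 4 counts per library and was not tested.

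The interferon-stimulated effectors are the read-out of the pathway, and most were scarce. Of the 11 effectors 8 were tested, 1 fell (Ifitm2) and 0 rose, where 6.74% of all tested genes fell. The difference was negative in 7 of the 8, and in 8502 of the 14983 over all tested genes. Their median log2 fold change was -0.36, where it was -0.02 over all tested genes. In 3 of the 8 (Ifitm2, Ifitm3 and Gbp2) the KO libraries lay wholly below the WT libraries, where 19.2% of all tested genes did. The 30 other interferon-stimulated genes that were tested had a median log2 fold change of -0.07, with a negative difference in 20. Among those 30, the KO libraries lay wholly below WT in 3 and wholly above in 2.

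Ifitm2 and Ifitm3 lie on chromosome 7 with Ifitm1 between them. The small membrane proteins of Ifitm2 and Ifitm3 keep enveloped viruses from fusing with the cell. Ifitm2 stood at 19.2, 16.4 and 22.5 TPM in WT replicates 1 to 3 and 11.8, 11.7 and 13.0 TPM in KO replicates 1 to 3. The WT libraries varied among themselves, yet the lowest of them was above the highest KO library. The means were 19.4 ± 3.07 TPM in WT and 12.2 ± 0.743 TPM in KO (SD, n = 3 each), and KO held 62.8% of WT (log2 fold change -0.64 ± 0.11 SE, 95% interval -0.89 to -0.39, limma adjusted p = 0.0094). Between 53 and 106 counts stood behind each value. The gene lies at chr7:140954837-140955987 on the minus strand of GRCm38, and 48.5% of its 606 windows of 50 bases also occur in another gene model, 36.1% in the overlapping model Gm45717 and 3.3% in another Ifitm gene. The value for Ifitm2 is uncertain to the extent that counting could split such reads.

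Ifitm3 stood at 20.99, 19.9 and 19.3 TPM in WT against 13.8, 18.3 and 13.8 TPM in KO. KO replicate 2 came close to the WT libraries, but all 3 KO libraries were below them. KO held 76.2% of WT (20.1 ± 0.845 TPM in WT and 15.3 ± 2.64 TPM in KO, SD, n = 3 each). The log2 fold change was -0.39 ± 0.11 SE (95% interval -0.64 to -0.14) and the limma adjusted p was 0.057, just short of the threshold. Without KO replicate 2 it was 0.0063, and over the 17 alternatives it ranged from 0.0063 to 0.17, with 4 of them under the threshold. Ifitm3 lies at chr7:141009586-141010770 on the minus strand, and 10% of its 629 windows of 50 bases occur in another gene model.

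The promoter windows of both genes (RefSeq, GRCm38.p6, Ifitm2 at chr7:140955912-140956211 and Ifitm3 at chr7:141010695-141010994, both on the minus strand and written in the direction of the gene) are shown because the pair stood side by side in level and in difference. Capitals mark every match to the 3 motifs. Ifitm2 holds 1 ISRE match, GAAAAGGAAA, whose first base is 46 bases before the start. Ifitm3 holds the same letters GAAAAGGAAA from base 3 after the start and a further ISRE match, GAAACCGAAA, from base 20. A GAS match in Ifitm3, TTCTGAGAA from base 14, runs into the latter ISRE match. A kappa B match on the opposite strand, read here as GGAAGTTCCC, begins 116 bases before the start.
Ifitm2: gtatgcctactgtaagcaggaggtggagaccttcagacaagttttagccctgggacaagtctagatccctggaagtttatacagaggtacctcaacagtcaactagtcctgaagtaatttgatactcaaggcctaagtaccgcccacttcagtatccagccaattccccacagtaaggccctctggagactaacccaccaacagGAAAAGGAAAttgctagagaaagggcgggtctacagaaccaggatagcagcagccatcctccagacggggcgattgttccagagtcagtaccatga
Ifitm3: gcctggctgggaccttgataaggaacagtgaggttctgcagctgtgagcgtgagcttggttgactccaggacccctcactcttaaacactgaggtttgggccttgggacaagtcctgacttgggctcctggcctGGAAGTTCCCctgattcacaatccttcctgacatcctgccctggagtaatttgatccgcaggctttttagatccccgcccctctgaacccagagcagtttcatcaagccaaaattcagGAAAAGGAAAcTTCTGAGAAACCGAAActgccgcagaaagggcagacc

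Gbp2, a guanylate-binding protein that attacks the vacuoles of intracellular pathogens, had few counts, 9 to 24 per library. It stood at 1.37, 1.41 and 0.977 TPM in WT against 0.511, 0.824 and 0.555 TPM in KO. The KO libraries all lay below the WT libraries, at 50.2% of WT by the means. The log2 fold change was -0.64 ± 0.22 SE (95% interval -1.13 to -0.14), which did not pass (limma unadjusted p = 0.019, adjusted p = 0.11), and 2.03% of its windows of 50 bases occur in Gbp2b. In voom on the recovered counts the log2 fold change was -0.94 with an adjusted p of 0.040, and over all alternatives that included Gbp2 the adjusted p ran up to 0.24. Its promoter window (RefSeq, GRCm38.p6, chr3:142620413-142620712, plus strand) holds an ISRE match on the opposite strand, read here as TTTCACTTTC from 59 bases before the start. A kappa B match, also on the opposite strand, is read here as GGAACTTCCC from base 8 after the start.
Gbp2: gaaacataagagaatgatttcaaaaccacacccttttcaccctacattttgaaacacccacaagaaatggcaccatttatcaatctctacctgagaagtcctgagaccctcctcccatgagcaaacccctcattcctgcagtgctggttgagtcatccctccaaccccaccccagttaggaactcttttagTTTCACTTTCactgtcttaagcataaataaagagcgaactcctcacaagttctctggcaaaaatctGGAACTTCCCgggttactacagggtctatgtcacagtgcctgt

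Over the RefSeq table, 35 of the 41 genes had a promoter window, 43 windows in all because some have more than 1 start, and Oas2, Tap2, Nfkb1, Relb, Socs2 and Ccl2 were not in it. ISRE letters were found in 11 of the 43 windows (25.6%) and in 3.44% of all 32851 windows of the table. The 11 windows belong to 11 genes: B2m, Bst2, Gbp2, Gbp3, Ifit1, Ifit3, Ifitm2, Ifitm3, Isg15, Oas1a and Stat2. GAS letters were found in 10 of the 43 windows (23.3%) and in 8.3% of all windows, and the kappa B consensus in 15 (34.9%) and in 8.46%. A match is a run of letters and no more. Of the 11 genes with ISRE letters, Ifitm2 passed the test, Ifit1 and Oas1a were not tested and 8 did not pass.

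The remaining effectors are given as values chosen after they were seen. Bst2, or tetherin, which holds budding virus on the cell surface, stood at 2.38, 1.70 and 2.09 TPM in WT against 1.82, 0.991 and 0.987 TPM in KO. KO replicate 1 overlapped WT, and each value rested on 5 to 13 counts (61.6% of WT, log2 fold change -0.56 with an SE of 0.22, adjusted p = 0.16). Ifit2, which binds viral RNA, was the best measured of the Ifit family, at 8.27, 8.36 and 9.11 TPM in WT against 8.33, 8.77 and 7.47 TPM in KO. Its genotypes overlapped (95.5% of WT, 95% interval -0.26 to 0.13, adjusted p = 0.68).

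Gbp3 stood at 73.2% of WT (adjusted p = 0.33) and Ifit3 at 87.2% (adjusted p = 0.73), both with overlap, and 51.2% of the windows of Ifit3 occur in its near copy Ifit3b. Isg15, a ubiquitin-like protein that is among the most strongly induced genes of an interferon response, had 1 to 6 counts per library (adjusted p = 0.61). Ifit1 had 1 to 7 counts, Oas2 had 0 in every WT library and 0 to 2 in KO, and Oas1a had 0 in all 6, where a count of 0 allows up to 3 counts per library. Of the windows of Oas1a 57.6% occur in Oas1g, so its 0 is uncertain to the extent that such reads were not assigned. Differences in Ifit1, Isg15, Oas1a and Oas2 were not detectable at this depth.

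Some vessel and meningeal markers also differed between the genotypes. Of 12 endothelial markers 8 had a mean under 1 TPM, and Cldn5, a defining marker, stood at 0 to 0.307 TPM. Of the 5 that were tested, Kdr (60.9% of WT, adjusted p = 0.0058) and Slco1a4 (32.4% of WT, adjusted p = 0.00091) fell, and Pecam1 (93.5%), Egfl7 (92.7%) and Cdh5 (267%) did not pass. The 12 summed to 31.9 to 36.1 TPM in WT and to 20.8 to 23.8 TPM in KO, a drop that Kdr and Slco1a4 carried. Of 7 mural markers, Kcnj8 and Abcc9 had means under 1 TPM. Of the 5 tested, Tagln fell (45.4% of WT, adjusted p = 0.013), while Acta2 (58.8%), Pdgfrb (113%), Rgs5 (138%) and Vtn (101%) did not pass, and the median log2 fold change was 0.01. The mural sum was 78.1 to 110.6 TPM in WT and 41.6 to 66.0 TPM in KO, and Tagln and Acta2 carried its drop. The 5 meningeal fibroblast markers summed to 35.2 to 36.3 TPM in WT and 45.1 to 57.6 TPM in KO, and 3 of them (Col1a1, Dcn and Lum) rose. The part of these cell types in the values of Ifitm2, Ifitm3, Gbp2 and Bst2 was not tested.

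**Figure D3:**
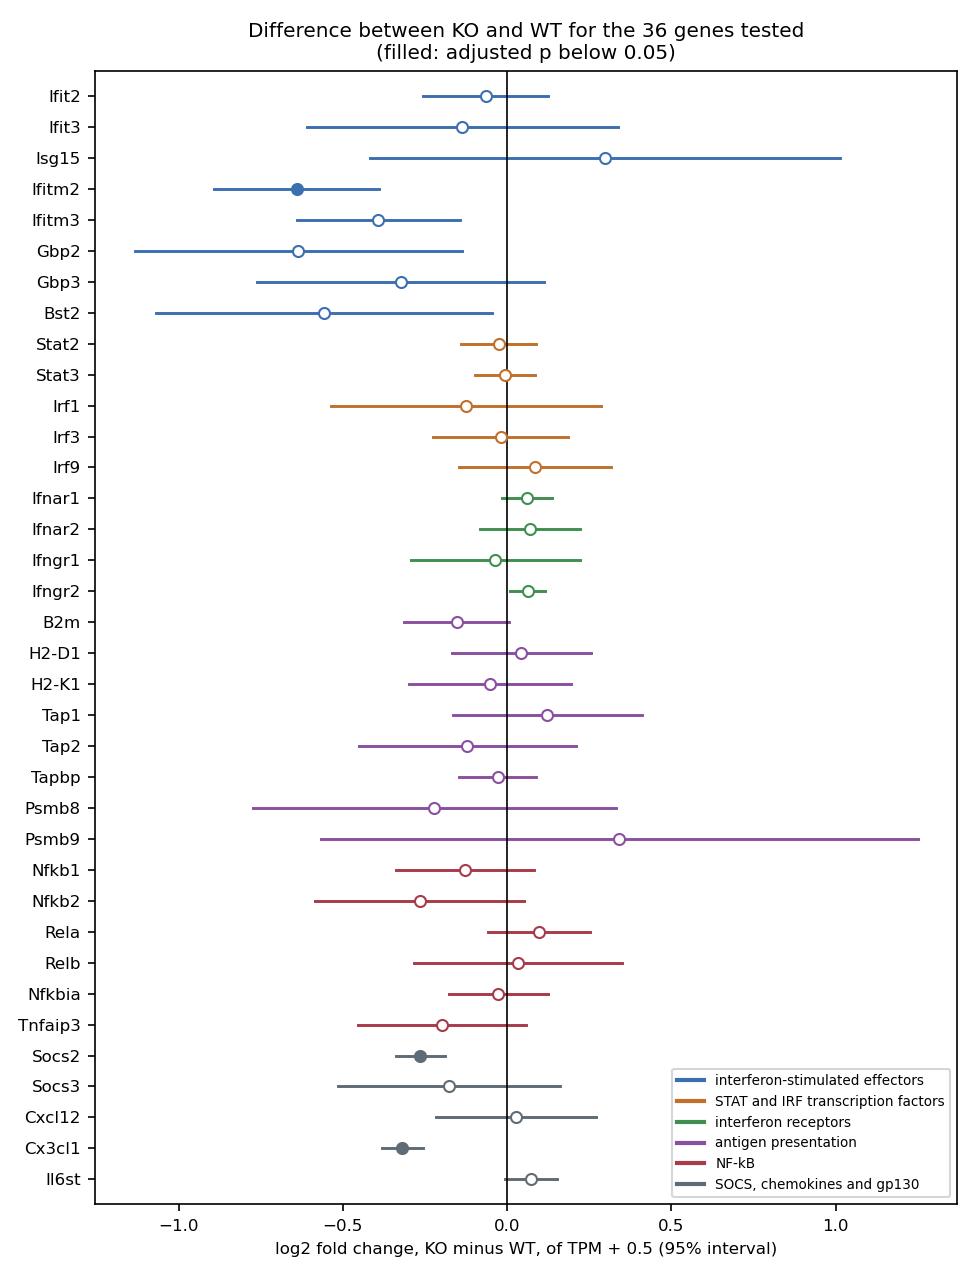
Log2 fold change (KO minus WT, of TPM plus 0.5) for the 36 tested genes, with 95% intervals and a colour for each role. Filled points passed the test: Ifitm2 at -0.64, Cx3cl1 at -0.32 and Socs2 at -0.26. Intervals are widest for genes with few counts, such as Psmb9 and Isg15.

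The genotypes overlapped in every antigen presentation gene, where 31.7% of all tested genes did not overlap. Of the 8 genes 0 passed, where 10.9% of all tested genes did, and the median log2 fold change was -0.04. B2m, the light chain that every class I molecule needs, was the most abundant, at 70.0, 76.1 and 80.0 TPM in WT against 69.7, 72.2 and 61.3 TPM in KO. KO replicate 3 was the lowest library and WT replicate 3 the highest, and the others were mixed. KO stood at 89.9% of WT (log2 fold change -0.15 ± 0.07 SE, 95% interval -0.31 to 0.01, unadjusted p = 0.058, adjusted p = 0.21).

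The class I heavy chains were at a level of the same order. H2-K1 stood at 39.6, 42.0 and 36.3 TPM in WT against 45.2, 35.7 and 33.5 TPM in KO (97.0% of WT, adjusted p = 0.81). H2-D1 stood at 32.4, 34.9 and 27.5 TPM in WT against 34.4, 29.6 and 33.5 TPM in KO (103% of WT, adjusted p = 0.81). The order of the libraries differed between the genes. Because 9.63% of the windows of H2-K1 and 12.8% of those of H2-D1 occur in other gene models, mostly of the same family, both values are uncertain. A further entry, H2-L, stood at 35.1 TPM in WT and 35.9 TPM in KO. Its name is not among the gene models searched, so these percentages do not cover windows shared with it. Relative to B2m in the same library, H2-K1 stood at 52.4% ± 6.16 in WT and 56.3% ± 7.78 in KO (SD, n = 3 each).

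Peptides reach class I molecules through the TAP transporter, helped by tapasin (Tapbp). Tap1, which forms the transporter with Tap2, stood at 3.85, 3.97 and 3.70 TPM in WT against 4.25, 4.93 and 3.59 TPM in KO. KO replicate 2 was the highest and KO replicate 3 the lowest of the 6 libraries (111% of WT, adjusted p = 0.60). Tap2 ranged from 3.04 to 4.36 TPM (adjusted p = 0.65) and Tapbp from 23.5 to 25.9 TPM (adjusted p = 0.77).

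The immunoproteasome subunits Psmb8 and Psmb9 replace the constitutive subunits Psmb5 and Psmb6 when interferon induces them. Psmb8 stood at 0.573, 0.710 and 1.09 TPM in WT against 0.570, 0.724 and 0.495 TPM in KO, on 8 to 20 counts. Its WT replicate 3 was the highest library and the rest were mixed (adjusted p = 0.62). Psmb9 had 3 to 21 counts and ranged from 0.165 to 1.21 TPM (adjusted p = 0.64). Beside the constitutive subunits both were minor: Psmb8 was 0.418% ± 0.141 of Psmb5 in WT and 0.309% ± 0.0605 in KO, and Psmb9 was 0.309% ± 0.192 and 0.472% ± 0.260 of Psmb6 (SD, n = 3 each). Psmb5 stood at 189.6 TPM in WT against 193.4 TPM in KO, and Psmb6 at 186.1 and 185.9 TPM.

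NF-kB genes were detected throughout. Of the 6 genes 0 passed, where 10.9% of all tested genes did, and the median log2 fold change was -0.08. Nfkbia, the inhibitor IκBα that NF-kB itself induces, was the most abundant, at 23.4, 24.5 and 23.97 TPM in WT against 24.6, 24.8 and 21.2 TPM in KO. Only KO replicate 3 stood apart, below the rest (98.4% of WT, 95% interval -0.18 to 0.13, adjusted p = 0.84). Rela, the p65 subunit that carries the activation domain, stood at 18.3, 18.2 and 17.0 TPM in WT against 17.4, 20.3 and 19.8 TPM in KO, with overlap (107% of WT, adjusted p = 0.41).

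Nfkb2 encodes the precursor of the subunit p52 of the non-canonical pathway. It was the one gene of the 6 whose KO libraries all lay below the WT libraries, as in 19.2% of all tested genes. It stood at 2.85, 3.21 and 3.00 TPM in WT against 2.41, 2.84 and 2.07 TPM in KO. KO replicate 2 lay just under the lowest WT library. KO stood at 80.9% of WT, which did not pass (log2 fold change -0.27 ± 0.14 SE, 95% interval -0.58 to 0.05, adjusted p = 0.27). Tnfaip3, the ubiquitin-editing enzyme A20 that shuts NF-kB signalling off, stood at 4.85, 5.42 and 5.48 TPM in WT against 5.19, 4.21 and 4.18 TPM in KO (86.2% of WT, 95% interval -0.45 to 0.06, adjusted p = 0.31). KO replicate 1 lay within the WT range, and the other KO libraries below it. Nfkb1 ranged from 8.34 to 10.6 TPM (adjusted p = 0.43) and Relb, the partner of p52, from 2.63 to 3.57 TPM (adjusted p = 0.91).

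How small a change the data could have missed differed among the 33 tested genes that did not pass. The 95% interval lay within a 1.2-fold change in either direction for 12 of them, namely Ifit2, Stat2, Stat3, Irf3, Ifnar1, Ifnar2, Ifngr2, H2-D1, Tapbp, Rela, Nfkbia and Il6st. It lay within 1.5-fold for 25 of the 33 and within 2-fold for 29. These are folds of TPM plus 0.5. For low genes, such as Psmb8 and Gbp3, the interval allows a larger fold in TPM itself. The 4 with intervals wider than 2-fold, Isg15, Gbp2, Bst2 and Psmb9, had at most 24 counts in a library.

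**Figure D4:**
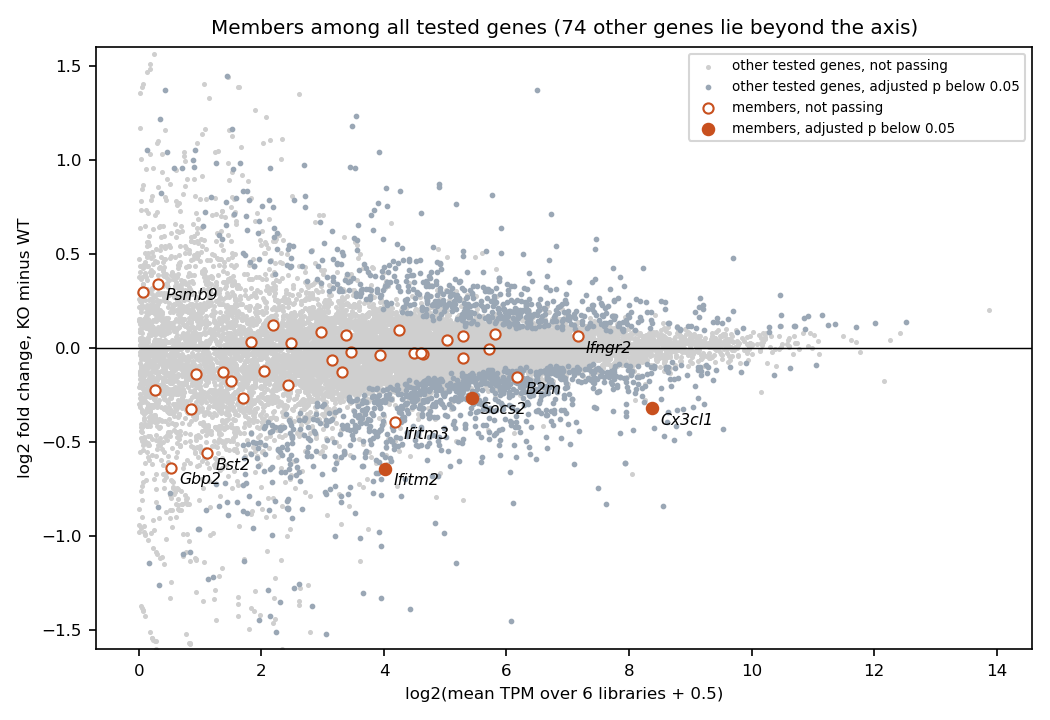
Log2 fold change (KO minus WT) against log2 of the mean TPM plus 0.5 for all 14983 tested genes in grey, with the 36 tested members in colour and filled where they passed. The members lie inside the cloud of other genes, with Gbp2, Bst2, Ifitm2, Ifitm3 and Cx3cl1 on its lower side, and 74 other genes lie beyond the axis limit of 1.6.

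Other genes of the same pathways came from lists of 186 names, of which 180 were listed in the table and 135 were tested. Of the 135 genes, 6 fell and 3 rose, which is 4.44% lower and 6.67% in either direction where 6.74% and 10.9% of all tested genes were. Their median log2 fold change was -0.02. Most of these calls were near the threshold: apart from Cyld, each was lost without at least 1 library. Of the 11 alternatives that kept every library, none ended the calls of Cyld and Csf1, and between 2 (Traf3 and Il18) and 6 (H2-DMa) ended each of the others.

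By role, 1 of 30 other interferon-stimulated genes fell and 0 rose. It was Irgm1, an interferon-induced GTPase that acts on pathogen vacuoles, at 4.34, 5.59 and 5.03 TPM in WT against 2.32, 3.63 and 3.26 TPM in KO. KO held 61.6% of WT without overlap (adjusted p = 0.048), and the call was lost whichever library was left out (adjusted p from 0.052 to 0.14). Of 26 other JAK-STAT and IRF genes 1 fell, the phosphatase Ptpn1 (92.2% of WT, adjusted p = 0.040, and 0.060 to 0.13 with 1 library left out). Among 10 nucleic acid sensors and adaptors 1 fell, the adaptor Traf3 (90.4% of WT, adjusted p = 0.023, and 0.030 to 0.085 with 1 library left out).

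Of 22 other antigen presentation genes 1 fell, H2-DMa, which loads peptides on class II molecules (86.3% of WT, adjusted p = 0.045, and 0.053 to 0.13 with 1 library left out). Of 27 other NF-kB pathway genes 1 fell, Cyld, a deubiquitinase that restrains NF-kB. Cyld stood at 38.4, 38.7 and 38.1 TPM in WT against 32.1, 31.9 and 32.1 TPM in KO. Its libraries were nearly level within each genotype, and KO held 83.4% of WT (log2 fold change -0.26 with an SE of 0.03, adjusted p = 0.0025). Cyld passed in all 17 alternatives.

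Among 17 other chemokine and gp130 genes 1 fell and 3 rose. That is 23.5% in either direction, where 10.9% of all tested genes passed. Csf1, a growth factor for microglia, fell from 14.0, 12.4 and 14.1 TPM in WT to 10.2, 10.4 and 9.78 TPM in KO. No library overlapped, and KO held 74.8% of WT (log2 fold change -0.40 with an SE of 0.07, adjusted p = 0.010, and 0.0504 without WT replicate 1). The genes that rose were Lifr and Cntfr, receptor chains that signal with gp130, and the cytokine Il18. Lifr stood at 116% of WT (adjusted p = 0.049), Cntfr at 114% (adjusted p = 0.048) and Il18 at 115% (adjusted p = 0.029). With 1 library left out their adjusted p ran up to 0.14 for Lifr, 0.14 for Cntfr and 0.094 for Il18. The constitutive proteasome subunits Psmb5, Psmb6 and Psmb7 did not pass, and the smallest of their p-values was that of Psmb7 (101% of WT, adjusted p = 0.78).

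**Figure D5:**
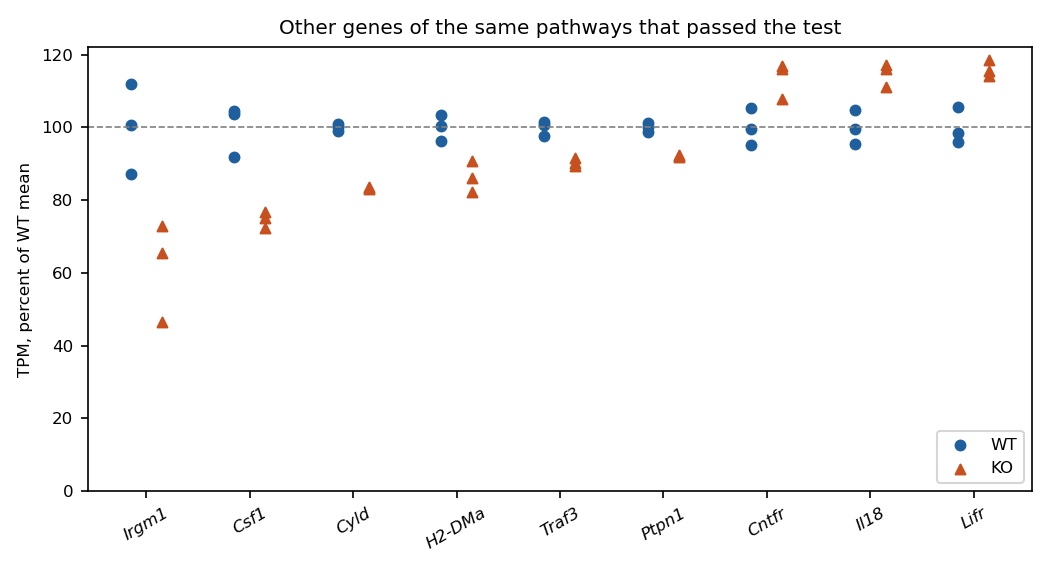
TPM in every library as a percentage of the WT mean, on an axis from 0, for the 9 other pathway genes that passed, with WT as circles and KO as triangles. Irgm1, Csf1, Cyld, H2-DMa, Traf3 and Ptpn1 lie below the WT libraries in all 3 KO libraries, and Cntfr, Il18 and Lifr above them.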

How the data were processed

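mRNA of 6 cultured neuron libraries, 3 WT and 3 KO, was sequenced. The authors deposited 1 table of TPM values, although its name says FPKM: each column sums to 1000000. The log-scale test planned for a normalized unit was used. The tools edgeR, featureCounts, TopHat, Picard 1.127, bcl2fastq 2.17 and FastQC 0.11.2 and the build mm10 are named, without roles, in the submitters' processing notes. Neither annotation nor strand setting is given there, so overlapping and antisense genes cannot be told apart.

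Whole counts were recovered from the values for all 19369 entries above 0 (100.0%, within 0.001 counts plus 5e-09 of the value), with 20092825 to 23900978 counts per library and 1 count worth 0.126 to 0.151 TPM at 1 kb. They give the depth and serve 1 alternative. The limit given for a count of 0 covers counting error only. The 95% intervals of the fold changes come from the fit and rest on the spread among the libraries.

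The 14983 of 20040 entries whose mean reached 0.5 TPM were fitted with limma 3.58.1 in R 4.3.3 on log2(TPM + 0.5), with moderated variances, a mean trend and no covariate, and p-values were adjusted over all of them (Benjamini-Hochberg). The script was tested on simulated data. The 41 genes and all lists were chosen with earlier results of these data known. Values in every library are given for genes that passed and, in each role, for the 3 smallest p-values and the highest level, and other pathway genes are named where they passed. Positions come from GENCODE M21 (GRCm38), which holds 94.6% of the names, and promoter windows from RefSeq (GRCm38.p6). Some genes of the lists are not reported here. The 17 alternatives changed the pseudocount, filter, scaling, variance model, test, replicate block or the libraries used.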

Additional observations from a re-analysis of the deposited data

How the results depend on the processing

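Cx3cl1, Socs2 and Ifitm2 passed in all 17 alternatives, with adjusted p-values (limma) up to 0.013, 0.019 and 0.044, and 0 of the 41 genes rose in any. The number that fell was 3 or 4. The fourth was Ifitm3 with a filter of 2 TPM, a robust trend, loci under 200 nt left out or without KO replicate 2, and Gbp2 in voom. Over all tested genes 622 rose and 1010 fell, against 406 and 658 without the variance trend, and 1161 and 1409 in voom, where 4 of the 36 genes fell. With 1 library left out 345 to 440 rose and 493 to 678 fell. The share of higher calls went from 38.1% to 53.1% with median centring and 49.2% with quantile normalization, while the median gene moved from -0.02 to 0.01 in both.

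With the replicate number as a block 360 genes rose and 585 fell. The numbers do not pair the samples: deviations of same-numbered libraries correlated at 0.008, -0.051 and 0.011, other pairs at -0.036 to 0.027, and not every library correlated best with its own number.

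Signs turned only in genes that never passed, and the cause was not tested. With median centring the log2 fold change was 0.00039 for Stat2, 0.019 for Stat3 and 0.0066 for Irf3, and with quantile normalization 0.0063, 0.0057 and 0.027, and 0.00012 for Ifngr1. In voom Stat3 gave 0.0057. With 1 library left out the range was -0.059 to 0.0043 for Stat2, -0.036 to 0.018 for Stat3, -0.086 to 0.058 for Irf3, -0.019 to 0.15 for Irf9, -0.14 to 0.089 for Ifngr1, -0.052 to 0.12 for H2-D1, -0.18 to 0.033 for H2-K1, -0.058 to 0.0085 for Tapbp, -0.047 to 0.14 for Relb, -0.066 to 0.047 for Nfkbia and -0.057 to 0.087 for Cxcl12. Isg15, Gbp2, Bst2 and Psmb9, whose intervals reached beyond 2-fold, had at most 24 counts per library. So did Psmb8, whose interval lay within 2-fold, and the part of depth was not tested.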
